A study of Mus musculus with 6 samples.

Results

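The genes described here encode the nuclear subunits of the last stages of mitochondrial respiration: complex III, cytochrome c, complex IV and ATP synthase. The members were all non-control probes of the array whose gene name starts with Uqcr, Atp5, Cox4, Cox5, Cox6, Cox7 or Cox8, or is Cyc1 or Cycs, with pseudogenes left out. The rule found 75 probes, carrying 46 gene names, among the 55681 probes and 34797 names of the array. Of these genes, 9 encode complex III, 18 complex IV, 15 ATP synthase and 1 cytochrome c. The other 3, Atp5s, Atp5sl and Cox4nb, share only the name: RefSeq now calls them Dmac2l, Dmac2 and Emc8, and none is a subunit.

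All 6 samples were G1E-ER-GATA-1 cells, a mouse erythroid line derived from Gata1-null cells in which a GATA-1 protein joined to an estrogen receptor domain becomes active once estradiol is added. The tested cells received siRNA against Foxo3 and the control cells a nontargeting siRNA, each by nucleofection at 0 h and again at 24 h (3 samples per siRNA). Both groups were given β-estradiol at 24 h and were harvested at 48 h, so that neither shows cells without active GATA-1. RNA of each sample was hybridised alone to a 1-colour Agilent array. The cells are an engineered line in culture, and the labels do not tell whether replicates were cultured separately, so that p-values here reflect a spread that may be technical.

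In mitochondria, complex III takes electrons from ubiquinol and hands them to cytochrome c, complex IV passes them from cytochrome c to oxygen, and both pump protons. ATP synthase lets the protons flow back and makes ATP. A few subunits are encoded in mitochondrial DNA and the rest, including all members described here, in the nucleus, and several complex IV subunits have a common form and a form typical of heart, muscle, lung or testis. Erythroid precursors need mitochondria for heme synthesis and clear them at the end of maturation. Foxo3 encodes a forkhead transcription factor that is known to work together with GATA-1 in erythroid maturation.

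Foxo3 itself was read by 2 probes. The probe designed on the RefSeq transcript had scaled log2 signals of −0.46, −1.29 and −1.89 with Foxo3 siRNA, against 1.23, 1.28 and 1.12 with nontargeting siRNA. A scaled log2 signal is the log2 of a probe's signal minus the 75th percentile of its array, so values show differences between arrays and not between probes. On this probe the groups did not overlap, and the difference was −2.42 (SE 0.340, limma adjusted p = 0.00533), with 2 of 3 Foxo3 siRNA arrays well above background. The second probe, taken from a clone sequence, gave 0.25 (limma adjusted p = 0.258), so the fall of Foxo3 rests on 1 probe.

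Signals of 20343 to 37532 non-control spots per Foxo3 siRNA array and of 31611 to 33513 per nontargeting array were well above background, and no spot was saturated. Foxo3 siRNA replicate 3 stood apart: 50.2% of its spots held a surrogate value put in for a signal not above background, against 16.7% to 29.3% on the other arrays. All arrays lay on 1 slide, in which row 1 held Foxo3 siRNA replicate 1 and all 3 nontargeting arrays, and row 2 held Foxo3 siRNA replicates 2 and 3. Of 10 erythroid markers, all 10 were well above background on all 6 arrays. Of 7 heart and muscle markers 0 were, and Ckm, Actc1, Tnnt2 and Mb were above background on none. The summed linear signal of these muscle markers was 0.193 to 0.478 with Foxo3 siRNA and 0.300 to 0.465 with nontargeting siRNA, in units of the 75th percentile. Of 6 testis markers 5 were tested and 0 were called by limma (3 were lower at an unadjusted p under 0.05), with sums of 1.02 to 1.21 with Foxo3 siRNA and 1.34 to 1.59 with nontargeting siRNA. Of 5 macrophage markers 3 were tested and 0 were called by limma, 2 being lower at an unadjusted p under 0.05, with sums of 4.96 to 6.39 with Foxo3 siRNA and 7.31 to 13.7 with nontargeting siRNA. The 1 tested muscle marker (Myh6, −0.83) and the 1 tested fibroblast marker (Col1a2, −0.43) were lower at an unadjusted p under 0.05 too. Both were above background on 2 of 3 Foxo3 siRNA arrays and all 3 nontargeting arrays. They and the 3 lower testis markers entered the tests only because the nontargeting arrays, where they were higher, passed the filter on dim signals. The part of these markers in the results was not tested.

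More member genes rose than fell after Foxo3 siRNA. Of the 75 probes, 71 passed the filter, which asks that every array of the Foxo3 siRNA group, or every array of the nontargeting group, be well above background. Of these 71 probes, 11 were higher and 1 was lower with Foxo3 siRNA at an adjusted p under 0.05 (limma, Benjamini-Hochberg over all 26991 kept probes). Higher calls made up 15.5% of the member probes, against 12.2% of all kept probes, while 13.4% of all kept probes were called lower and 25.6% in either direction. Read by its brightest kept probe, each of 43 genes was tested, 8 were higher and 1 was lower. The 3 values of the groups lay wholly apart in 32 member probes with Foxo3 siRNA higher and 6 with it lower, where 21.5% and 28.3% of all kept probes did so, or 49.8% in either direction. The share of member probes called higher was near that of the whole array. The 1 of 71 called lower and the 6 of 71 wholly apart lower were smaller shares than 13.4% and 28.3%. The 32 of 71 wholly apart higher were a larger share than 21.5%. These shares were not tested.

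The count of calls was small enough to depend on single arrays. Without 1 array it was 3 to 9 higher and 1 to 2 lower, with 3 higher without nontargeting replicate 2, 6 higher without Foxo3 siRNA replicate 2 or 3 or nontargeting replicate 1 or 3, and 9 without Foxo3 siRNA replicate 1. With slide row as a block 3 probes were called higher and 0 lower, and unadjusted p-values under 0.05 were found for 14 higher and 1 lower. On row 1 alone 1 was called higher and 0 lower, with 13 and 1 unadjusted. The median log2 difference of all kept probes was −0.162 under the scaling used here. It was 0.149 with arrays scaled to their medians and 0.222 with arrays scaled to the spike-in controls. The share of higher among all calls was 47.6%, against 77.2% with median scaling and 82.1% with spike-in scaling. Since bulk RNA was measured, fewer cells of a type and less RNA per cell cannot be told apart.

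**Figure D1:**
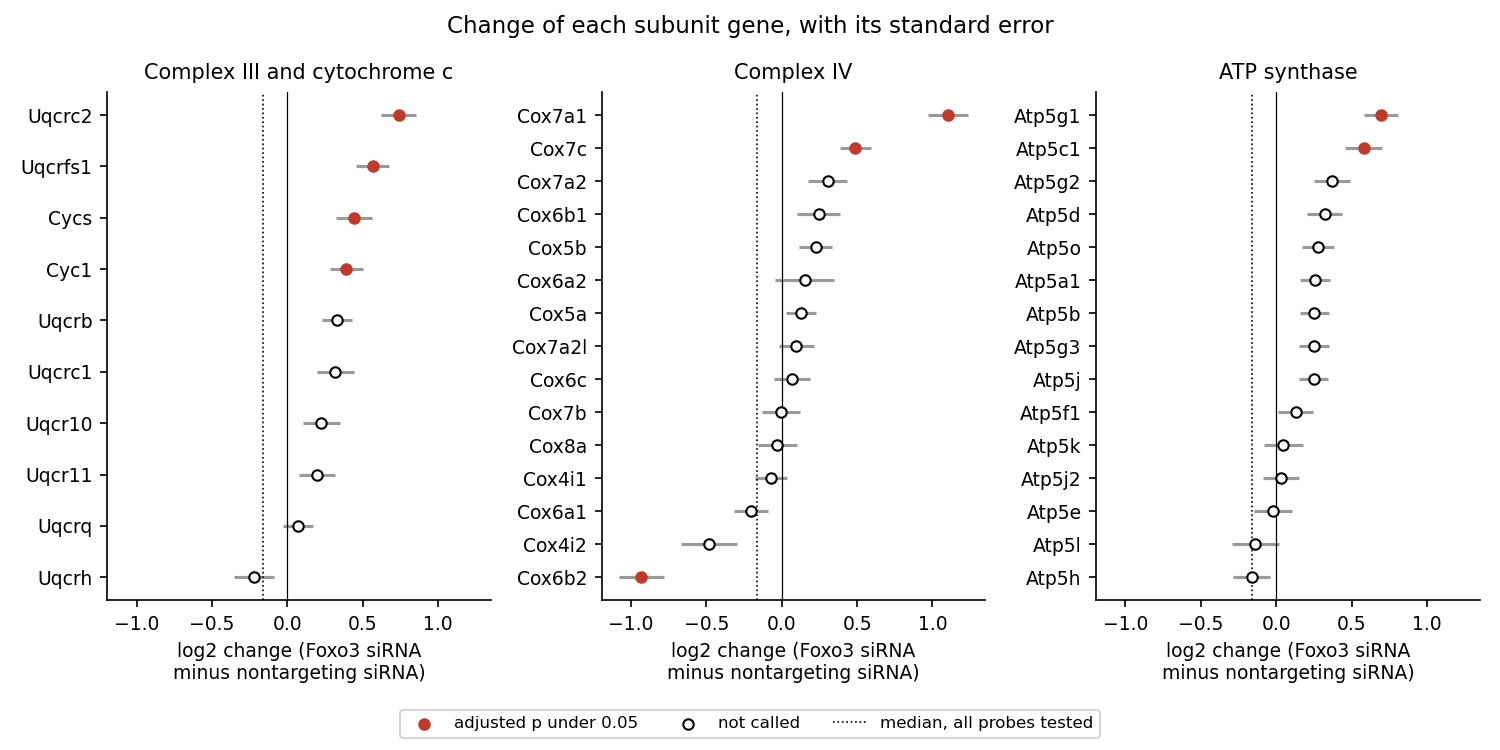
Log2 change (Foxo3 siRNA minus nontargeting siRNA, horizontal axis) of each tested subunit gene, by complex, read by its brightest kept probe; points are estimates from 3 arrays per group and lines are standard errors. Filled points passed an adjusted p of 0.05, and the dotted line is the median of all 26991 kept probes, −0.162. Complex III ran from −0.22 to 0.74, complex IV from −0.93 to 1.10 and ATP synthase from −0.16 to 0.69.

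The genes that rose in complex III encode core and catalytic subunits. Uqcrc2, a core subunit of the matrix arm, had scaled log2 signals of 5.94, 5.72 and 5.69 with Foxo3 siRNA, against 5.04, 5.07 and 5.03 with nontargeting siRNA. All Foxo3 siRNA arrays lay above all nontargeting arrays, and the rise was 0.74 on the log2 scale, or 1.67-fold (SE 0.114 on the log2 scale, limma adjusted p = 0.00712). Uqcrfs1, the Rieske iron-sulfur protein that takes the first electron from ubiquinol, had 5.03, 5.04 and 4.87 with Foxo3 siRNA, against 4.37, 4.48 and 4.38 with nontargeting siRNA. Its groups were apart too, and it rose by 0.57 (SE 0.109, limma adjusted p = 0.0140). Cyc1, or cytochrome c1, which hands the electron on to cytochrome c, had 5.37, 5.49 and 5.57 with Foxo3 siRNA, against 5.02, 5.12 and 5.12 with nontargeting siRNA. It rose by 0.39 (SE 0.110, limma adjusted p = 0.0437), a call close to the threshold. Uqcrc1, the other core subunit, had 4.40, 4.32 and 4.53 with Foxo3 siRNA, against 4.18, 4.16 and 3.95 with nontargeting siRNA. Its difference of 0.32 did not pass (limma adjusted p = 0.0958), although its groups did not overlap.

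The 5 small subunits of complex III were not called by limma when read by their brightest probe, and 1 of them, Uqcrb, had an unadjusted p under 0.05. Uqcrb, which lies near the ubiquinone site, came closest, at 6.43, 6.36 and 6.38 with Foxo3 siRNA, against 6.07, 6.02 and 6.09 with nontargeting siRNA. That probe gave 0.33 (limma adjusted p = 0.0520), and its 2 dimmer probes passed at 0.37 and 0.48 (limma adjusted p = 0.0448 and 0.0213). The 3 Uqcrb probes share runs of 12 to 49 bases, so they are not separate readings. Uqcrh, the hinge protein between cytochrome c1 and cytochrome c, was the only complex III gene below 0, at 8.85, 8.48 and 8.66 with Foxo3 siRNA, against 8.93, 8.80 and 8.92 with nontargeting siRNA (−0.22, limma adjusted p = 0.229), and its groups overlapped. The remaining small subunits gave 0.23 for Uqcr10, 0.20 for Uqcr11 and 0.0721 for Uqcrq.

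Of the 9 complex III genes, 3 were called higher (33.3%, against 12.2% of all kept probes) and 0 lower (against 13.4%). Their median log2 difference was 0.32. The core and catalytic subunits had 3 of 4 called and a median of 0.48, and the small subunits 0 of 5 and 0.20. As a per-array median of log2 signals centred on each gene's mean, core and catalytic minus small subunits was 0.129, 0.291 and 0.163 with Foxo3 siRNA, against −0.233, −0.0462 and −0.274 with nontargeting siRNA. These values did not overlap, which describes the split of the subunits and tests nothing, since the genes were grouped with results known. Uqcrc2 kept its call without any 1 array. Uqcrfs1 missed it without Foxo3 siRNA replicate 2 (0.54, limma adjusted p = 0.0536) and without nontargeting replicate 2 (0.60, limma adjusted p = 0.0561). Cyc1 kept it only without Foxo3 siRNA replicate 1 (limma adjusted p = 0.0474) and otherwise its adjusted p ranged up to 0.133 in limma. On slide row 1 alone, with 1 Foxo3 siRNA array, Uqcrc2 was at 0.89, Uqcrfs1 at 0.62 and Cyc1 at 0.29, and none of these passed there.

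Cytochrome c, the soluble carrier between complexes III and IV, was also higher. Cycs had scaled log2 signals of 4.99, 5.06 and 5.07 with Foxo3 siRNA, against 4.44, 4.61 and 4.74 with nontargeting siRNA. The groups were apart and the rise was 0.44 (SE 0.120, limma adjusted p = 0.0400). Its other kept probe gave 0.31 (limma adjusted p = 0.105), and its remaining probe did not pass the filter. The call of Cycs was lost when any 1 array was left out, at differences of 0.36 to 0.52, and it stood at 0.39 on slide row 1.

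**Figure D2:**
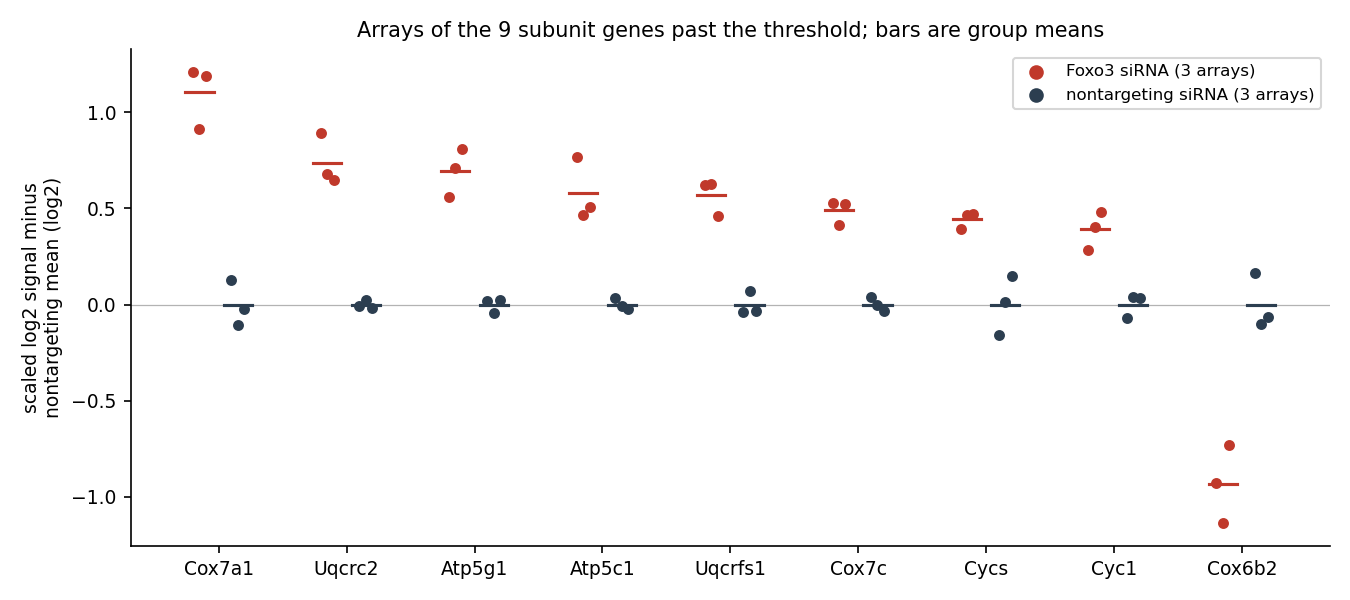
Scaled log2 signal minus the nontargeting mean (vertical axis, log2) on each of the 3 Foxo3 siRNA arrays and the 3 nontargeting arrays, for the 9 genes past the threshold; bars are group means. In the 8 higher genes every Foxo3 siRNA array lay above every nontargeting array, and in Cox6b2 every Foxo3 siRNA array lay below.

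In complex IV the called genes were Cox7a1, Cox6b2 and Cox7c, the first pair being tissue forms of a subunit. Cox7a1, the heart and muscle form of the COX7A subunit, had the largest difference of all members. Its 60-base probe read the transcript across an intron (mm9, chr7:30970337-30970948, plus strand), and shared no run of 17 or more bases with a probe of another gene name. The probe is shown because this value rests on it alone.
Cox7a1 probe: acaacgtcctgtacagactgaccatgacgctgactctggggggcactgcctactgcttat

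On that probe the scaled log2 signals were 8.36, 8.07 and 8.34 with Foxo3 siRNA, against 7.28, 7.05 and 7.13 with nontargeting siRNA. The groups were far apart, and Cox7a1 rose by 1.10, or 2.15-fold (SE 0.133 on the log2 scale, limma adjusted p = 0.0035). It kept its call without any 1 array, at 1.05 to 1.20, and on slide row 1 alone, at 1.21 (limma adjusted p = 0.0440). Cox7a2, the common form, had 6.32, 6.01 and 6.09 with Foxo3 siRNA, against 5.89, 5.71 and 5.90 with nontargeting siRNA, a difference of 0.31 that did not pass (limma adjusted p = 0.120). Cox7a2l, which joins complexes III and IV into supercomplexes, gave 0.0973 on its brightest probe and 0.0472 and 0.23 on the others, and none passed.

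Cox6b2, the testis form of COX6B, was the only member called lower. Its scaled log2 signals were 0.97, 0.76 and 1.17 with Foxo3 siRNA, against 2.06, 1.79 and 1.83 with nontargeting siRNA. The groups were apart, with a difference of −0.93 (SE 0.148, limma adjusted p = 0.00779), and the call held without any 1 array. With arrays scaled to their medians it was −0.62 and did not pass (limma adjusted p = 0.099), and on row 1 alone it was −0.93 (limma adjusted p = 0.0696). Cox6b1, the common form, had 4.96, 4.58 and 4.97 with Foxo3 siRNA, against 4.65, 4.51 and 4.62 with nontargeting siRNA, and its groups overlapped (0.25, limma adjusted p = 0.221). Of the testis markers, Prm1 was at −0.39, Prm2 at −0.66 and Acrv1 at −0.84 (limma adjusted p = 0.0540, 0.0683 and 0.0519), and all 3 passed the filter through the nontargeting arrays. Their part in the Cox6b2 value was not tested.

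The other paralog sets were not called. Cox4i2, the lung form of COX4, had 0.11, −0.24 and −0.35 with Foxo3 siRNA, against 0.61, 0.25 and 0.10 with nontargeting siRNA (−0.48, limma adjusted p = 0.101), with overlapping groups. Cox4i1, its common counterpart, had 8.08, 7.93 and 8.08 with Foxo3 siRNA, against 8.15, 8.10 and 8.05 with nontargeting siRNA (−0.0704). Cox6a1, the common form of COX6A, lay lower on all Foxo3 siRNA arrays, at 9.87, 9.60 and 9.77, against 9.96, 9.93 and 9.96 with nontargeting siRNA, but its −0.20 did not pass (limma adjusted p = 0.210). Under median scaling the sign of Cox4i1 and Cox6a1 turned. Cox6a2, the muscle form, was dim and gave 0.15 with overlapping groups. Cox7b (−0.00179) and Cox8a (−0.0295) were among the members with the smallest differences. Their tissue forms, Cox7b2, Cox8b and Cox8c, did not pass the filter: Cox7b2 and Cox8b were above background on no array, and Cox8c on 2 Foxo3 siRNA arrays and 1 nontargeting array.

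Among the subunits with a single form, Cox7c was called. Its brightest probe had 5.17, 5.05 and 5.17 with Foxo3 siRNA, against 4.68, 4.64 and 4.61 with nontargeting siRNA, and it rose by 0.49 (SE 0.102, limma adjusted p = 0.0183). A neighbouring probe gave 0.41 (limma adjusted p = 0.0571). The dimmest was above background on 2 of 3 Foxo3 siRNA arrays, so it was tested only because the nontargeting arrays passed the filter. It gave −0.32 (limma adjusted p = 0.246), so the Cox7c probes disagreed in sign. The call was lost without Foxo3 siRNA replicate 3 (limma adjusted p = 0.0664), without nontargeting replicate 2 (0.0790) and without nontargeting replicate 3 (0.0589). On slide row 1 the brightest probe was at 0.53. Cox5a (0.13), Cox5b (0.23) and Cox6c (0.0686) did not pass.

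Of the 18 complex IV genes, 15 passed the filter on dim signals, 2 were called higher and 1 lower, and the median log2 difference was 0.0973. The share called higher, 13.3%, was near the 12.2% of all kept probes. The 11 tested genes other than tissue forms had 1 higher and a median of 0.0973. The 4 tested tissue forms had 1 higher and 1 lower, with a median of −0.16.

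**Figure D3:**
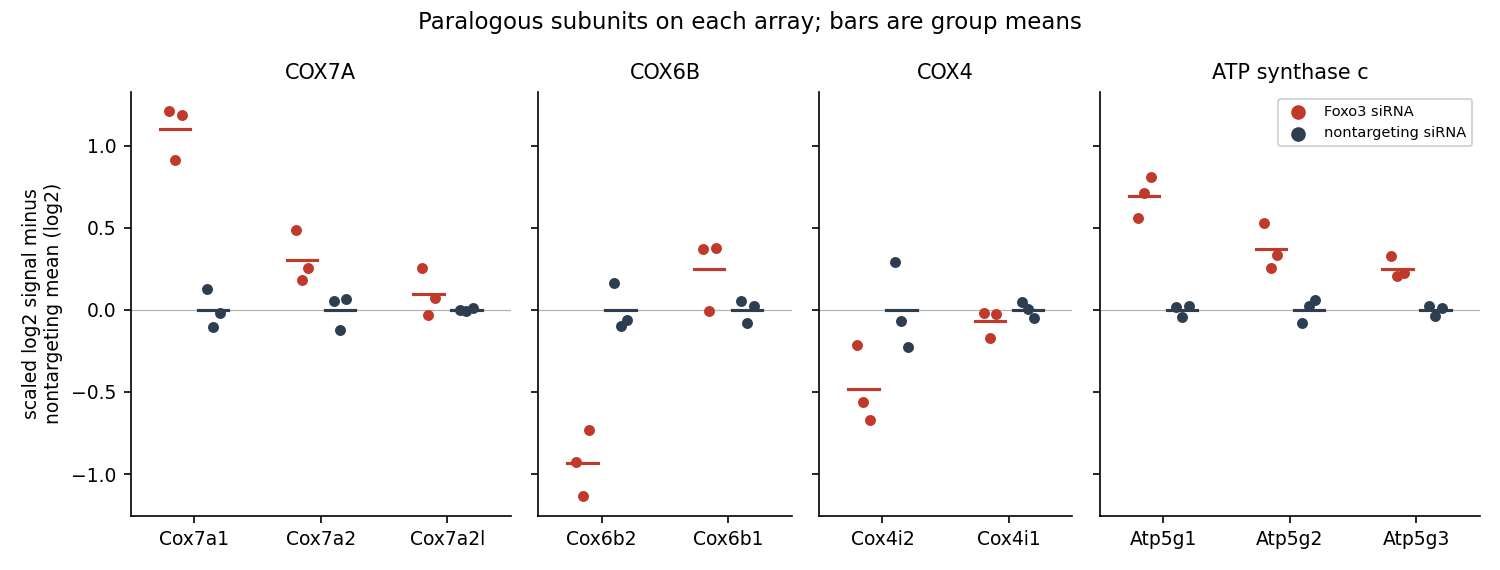
Scaled log2 signal minus the nontargeting mean (vertical axis, log2) on each array for the COX7A, COX6B and COX4 paralogs and the genes for subunit c of ATP synthase; bars are means of 3 arrays. Cox7a1 and Cox6b2 lay wholly above and wholly below their nontargeting arrays, while Cox6b1 and Cox4i1 overlapped.

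Paralogs were set against each other within each array, in 9 pairs that include the pair of Atp5g1 probes, as the difference of their centred log2 signals. Cox7a1 minus Cox7a2 was 0.726, 0.731 and 0.931 with Foxo3 siRNA, against 0.0689, 0.0203 and −0.0892 with nontargeting siRNA. The change of Cox7a1 exceeded that of Cox7a2 by 0.80 (SE 0.0822), and the groups did not overlap. Cox6b2 minus Cox6b1 was −1.30, −1.13 and −1.11 with Foxo3 siRNA, against 0.107, −0.0216 and −0.0857 with nontargeting siRNA, a difference of −1.18 (SE 0.0823), again apart. Cox4i2 minus Cox4i1 was −0.41 (SE 0.182), with groups apart, and Cox6a2 minus Cox6a1 was 0.36 (SE 0.171), with groups that overlapped. With 3 arrays against 3, the two-sided exact permutation test cannot go below p = 0.1, which 6 of the 9 pairs reached, the first 3 named here among them (Benjamini-Hochberg adjusted p = 0.15 over the 9 pairs), so none passes a threshold of 0.05. These ratios within an array do not depend on the scaling between arrays.

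In ATP synthase 12 of 15 genes lay above 0, and Atp5c1 and Atp5g1 passed the threshold. Atp5c1, the central shaft that turns inside the catalytic head, had 6.56, 6.26 and 6.30 with Foxo3 siRNA, against 5.82, 5.78 and 5.76 with nontargeting siRNA. The groups were apart and it rose by 0.58 (SE 0.121, limma adjusted p = 0.0185). Its other probe, which starts 123 bases away and does not overlap, gave 0.65 (limma adjusted p = 0.0127). The call on the brighter probe was lost without nontargeting replicate 1, 2 or 3 (limma adjusted p = 0.0525, 0.0779 and 0.0579), and on slide row 1 the value was 0.77.

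Atp5g1 is 1 of 3 genes for subunit c, whose copies form the rotating ring in the membrane. The 3 genes encode the same mature protein. Its brighter probe, designed on the RefSeq transcript, had 6.47, 6.62 and 6.72 with Foxo3 siRNA, against 5.93, 5.87 and 5.94 with nontargeting siRNA. On this probe Atp5g1 rose by 0.69 (SE 0.113, limma adjusted p = 0.00837). The dimmer probe, designed on an Ensembl transcript, had 4.76, 4.54 and 4.53 with Foxo3 siRNA, against 5.07, 5.09 and 4.88 with nontargeting siRNA. It pointed the other way (−0.40, limma adjusted p = 0.0567), and on each array the gap between the probes was wider with Foxo3 siRNA, by 1.10 (SE 0.168). The call on the brighter probe was lost without nontargeting replicate 2 (limma adjusted p = 0.0504), and on slide row 1 the value was 0.56.

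The sequences of the 2 Atp5g1 probes bear on how far that call can be read. Both lie on the minus strand of chromosome 11 in mm9, 3998 bases apart (chr11:95934315-95934374 for the brighter and chr11:95930317-95930376 for the dimmer). Stretches of 30 bases are shown, bases 31 to 60 of the brighter and 29 to 58 of the dimmer, with capitals for bases that lie in a run of 17 or more shared with probes of other gene names. The run of the brighter probe is a simple repeat found in 15 probes of 14 other names, and that of the dimmer occurs in a probe for Naip5. Only the 55681 probes of the array were compared. Matches of either run elsewhere in the genome were not counted, so the 1 match of the dimmer probe does not show that it is specific.
Atp5g1 brighter probe: tttaccattAAACAACAACAACAACAACAA
Atp5g1 dimmer probe: gcgagtTGGCTCAGTGGTTAAGAGCgccga

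Which transcripts bind these probes was not tested, and Atp5g1 is reported as uncertain. Of the 75 member probes, 23 shared such a run with a probe of another name, among them the brightest Cox7c probe and 1 of the called Uqcrb probes. The kept probes of the other subunit c genes did not disagree in sign. Atp5g2 had 7.53, 7.26 and 7.34 with Foxo3 siRNA, against 6.92, 7.03 and 7.07 with nontargeting siRNA, and its 0.37 did not pass (limma adjusted p = 0.0636). Atp5g3 had 6.99, 6.87 and 6.89 with Foxo3 siRNA, against 6.69, 6.63 and 6.68 with nontargeting siRNA (0.25, limma adjusted p = 0.108). Both lay wholly above the nontargeting arrays. Within arrays Atp5g1 minus Atp5g2 was 0.32 (SE 0.152, exact permutation p = 0.2) and Atp5g1 minus Atp5g3 was 0.44 (SE 0.106, exact permutation p = 0.1, the smallest possible).

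The other subunits of the catalytic head had small differences that did not pass. Atp5a1 had 6.24, 6.21 and 6.26 with Foxo3 siRNA, against 6.03, 5.94 and 5.96 with nontargeting siRNA (0.26, limma adjusted p = 0.0983). Atp5b, the catalytic β subunit, had 7.71, 7.75 and 7.72 with Foxo3 siRNA, against 7.50, 7.49 and 7.43 with nontargeting siRNA (0.25, limma adjusted p = 0.0977). Their values within a group lay within 0.1 of each other, and the groups were apart in both. Atp5d was at 0.32 and Atp5e at −0.0200.

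In the peripheral stalk that holds the head, Atp5o gave 0.28, Atp5j 0.25, Atp5f1 0.13 and Atp5h −0.16, and limma called 0 of 4, with 2 higher (Atp5o and Atp5j) at an unadjusted p under 0.05. The dimmer Atp5j probe gave −0.33 (limma adjusted p = 0.123), opposite in sign to the brighter. That dimmer probe was above background on 2 of 3 Foxo3 siRNA arrays, so it was tested only because the nontargeting arrays passed the filter. The membrane subunits Atp5j2 (0.0297), Atp5k (0.0471) and Atp5l (−0.14) did not pass, and their groups overlapped. All 6 Atp5l probes were below 0, between −0.23 and −0.13, but several overlap.

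Of the 15 ATP synthase genes, 2 were higher (13.3%, near the 12.2% of all kept probes) and 0 lower (against 13.4%). The median log2 difference was 0.25, and 12 lay above 0, against 38.5% of all kept probes. In 9 of 15 the Foxo3 siRNA arrays were wholly above the nontargeting arrays, against 21.5% of all kept probes. The median was 0.37 for the 3 subunit c genes, 0.26 for the 5 genes of head and shaft, 0.19 for the 4 stalk genes and 0.0297 for the 3 membrane genes. The gap between subunit c genes and the stalk and membrane genes together was 0.0328, 0.207 and 0.131 per array with Foxo3 siRNA, against −0.299, −0.0440 and −0.0686 with nontargeting siRNA, and did not overlap. The same gap for head and shaft overlapped between groups.

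Complex III and ATP synthase had higher medians than complex IV. Across the 3 complexes 39 genes were tested, 7 were higher (17.9%, against 12.2% of all kept probes) and 1 lower. Their median log2 difference was 0.23, against −0.162 for all kept probes. Most members were bright, and brighter probes had a higher median. Among the 3656 kept probes at least as bright as the dimmest subunit gene other than tissue forms, it was −0.0459. Of these probes 14.8% were called higher. The per-array median of centred signals of complex III was 0.142, 0.0639 and 0.174 with Foxo3 siRNA, against −0.0768, −0.159 and −0.138 with nontargeting siRNA. For ATP synthase it was 0.182, 0.0672 and 0.120 with Foxo3 siRNA, against −0.0942, −0.141 and −0.114 with nontargeting siRNA. In both the groups were apart. For complex IV it was 0.174, −0.133 and 0.0227 with Foxo3 siRNA, against 0.0227, −0.0911 and −0.0420 with nontargeting siRNA, and the groups overlapped. Over all kept probes it was −0.0157, −0.0271 and −0.121 with Foxo3 siRNA, against 0.0798, 0.0504 and 0.0211 with nontargeting siRNA.

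**Figure D4:**
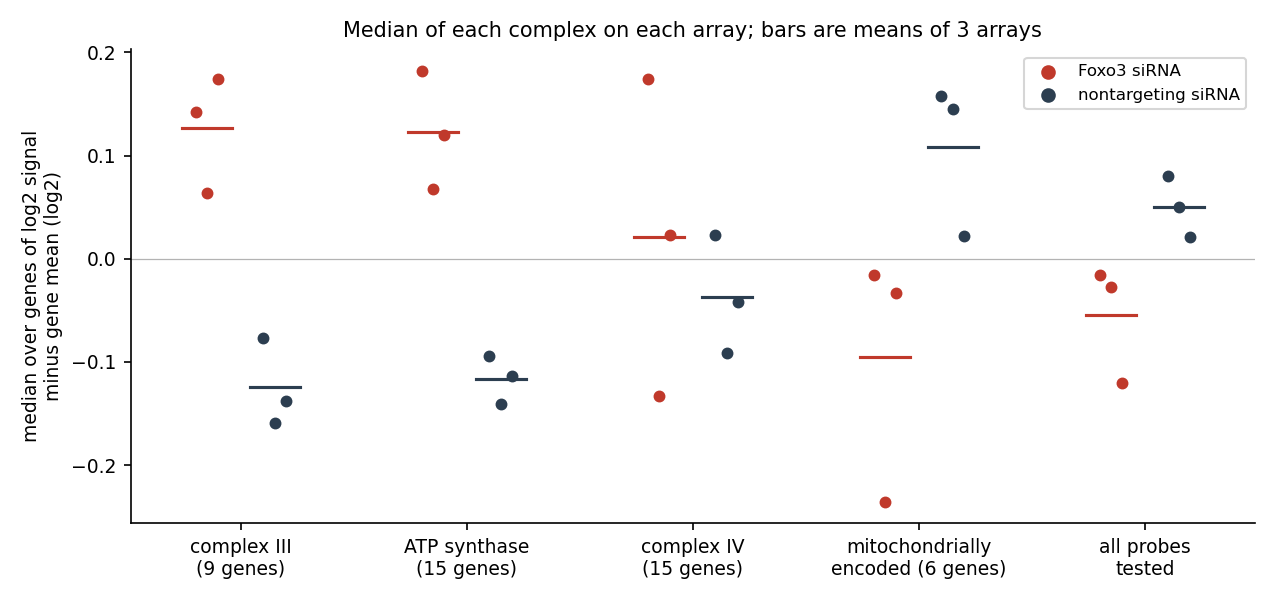
Median over genes of the log2 signal minus each gene's 6-array mean (vertical axis, log2), 1 point per array, for each complex, the mitochondrially encoded subunits and all kept probes; bars are means of 3 arrays. Complex III and ATP synthase lay above 0 on all Foxo3 siRNA arrays and below 0 on all nontargeting arrays, complex IV overlapped, and the mitochondrially encoded subunits lay the other way.

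Set against each other within arrays, complex III minus complex IV was −0.0321, 0.197 and 0.151 with Foxo3 siRNA, against −0.0994, −0.0678 and −0.0959 with nontargeting siRNA. The groups were apart, by a mean of 0.19, although replicate 1 lay near the nontargeting arrays. ATP synthase minus complex IV was 0.00806, 0.200 and 0.0973 with Foxo3 siRNA, against −0.117, −0.0496 and −0.0720 with nontargeting siRNA (mean difference 0.18). Complex III minus ATP synthase overlapped between groups (mean difference 0.0117). These are descriptions over genes chosen with results known, and no p-value is attached. On slide row 1 alone the median log2 differences were 0.30 for complex III, 0.22 for complex IV and 0.25 for ATP synthase, so the lower value of complex IV rests largely on the Foxo3 siRNA arrays of row 2. Without Foxo3 siRNA replicate 1 the complex IV median was 0.0198. Without Foxo3 siRNA replicate 3, the array with many surrogate values, the medians were 0.26, 0.0846 and 0.25.

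**Figure D5:**
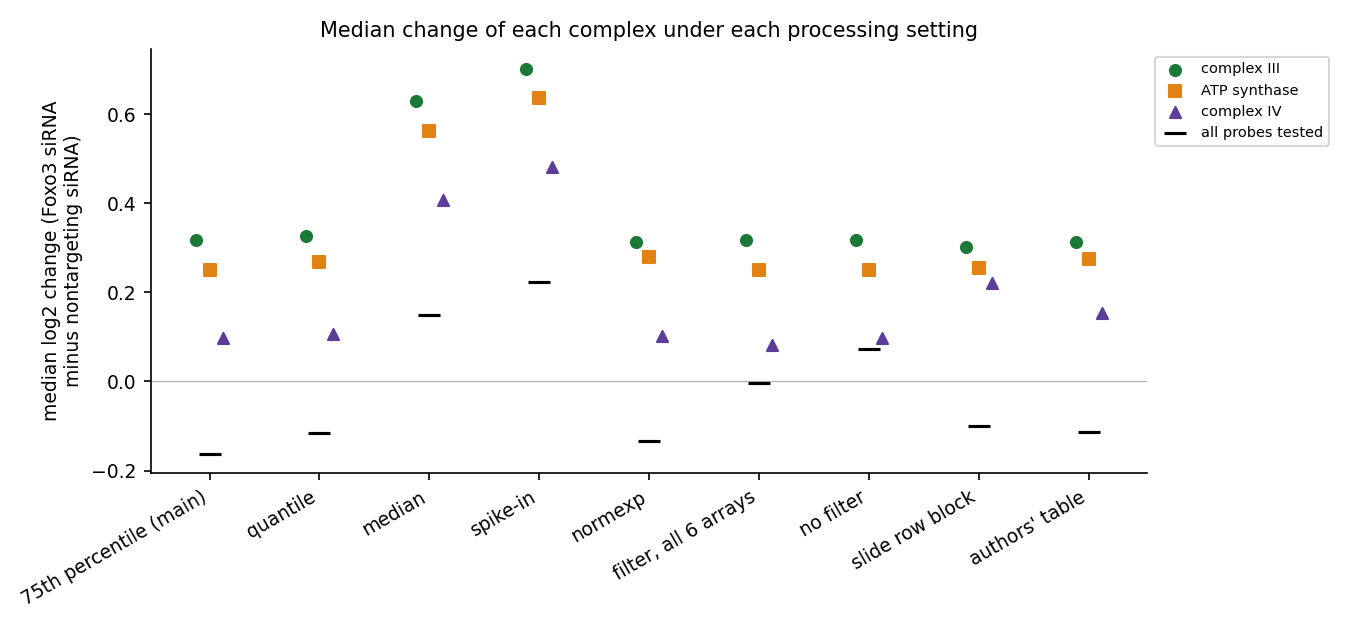
Median log2 change (Foxo3 siRNA minus nontargeting siRNA, vertical axis) of complex III, ATP synthase, complex IV and all probes tested under 9 ways of processing (horizontal axis). Scaling to array medians or to spike-in controls raised all 4 values together, and complex IV lay below complex III and ATP synthase under each of these settings.

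The subunits of the same complexes that are encoded in mitochondrial DNA lay at or below 0. Of 6 tested, 0 were called in either direction by limma (2 of them, COX1 and COX2, had an unadjusted p under 0.05 and were lower), with a median log2 difference of −0.17. COX1, the catalytic subunit of complex IV, had 10.26, 9.86 and 10.00 with Foxo3 siRNA, against 10.63, 10.46 and 10.46 with nontargeting siRNA, a difference of −0.47 just short of the threshold (limma adjusted p = 0.0503) that passed without Foxo3 siRNA replicate 1 (limma adjusted p = 0.0324). COX2, which receives electrons from cytochrome c, had 9.72, 9.39 and 9.50 with Foxo3 siRNA, against 10.10, 9.93 and 9.91 with nontargeting siRNA (−0.44, limma adjusted p = 0.0505). Both lay wholly below their nontargeting arrays. COX3 gave −0.22, ATP6 −0.13, CYTB −0.0702 and ATP8 −0.0110, and these 4 turned above 0 with median or spike-in scaling, while COX1 and COX2 stayed below 0. Under quantile normalization, which evens out the brightest probes, COX1 was at −0.0582. The per-array median of the nuclear subunits minus that of the mitochondrial ones was 0.198, 0.222 and 0.143 with Foxo3 siRNA, against −0.224, −0.285 and −0.116 with nontargeting siRNA, and did not overlap.

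Of 28 tested genes that assemble the complexes or inhibit ATP synthase, 6 were higher (21.4%, against 12.2% of all kept probes) and 1 was lower (3.57%, against 13.4%). Of 5 tested complex III factors 1 was higher and 0 lower: Uqcc2, needed for cytochrome b, had 4.37, 4.37 and 4.41 with Foxo3 siRNA, against 3.83, 3.67 and 3.73 with nontargeting siRNA, and rose by 0.64 (limma adjusted p = 0.00829), a call lost without nontargeting replicate 2 (limma adjusted p = 0.0512). Of 19 complex IV factors 3 were higher and 1 lower, with a median of 0.18. The share higher, 15.8%, was near that of all kept probes. Cox18, which inserts COX2 into the membrane, rose by 0.82 and Cox16 by 0.80 (limma adjusted p = 0.0064 and 0.0040), and both kept their calls without any 1 array. The copper chaperone Cox11 was called at 0.35 (limma adjusted p = 0.0427), but the call was lost without any 1 array (limma adjusted p = 0.0769 to 0.134) and its other probe gave −0.24. Sco1, another copper chaperone, was at −0.49 (limma adjusted p = 0.0428), with 2 of 3 Foxo3 siRNA arrays above background, so that it was tested only because the nontargeting arrays passed the filter. That call was lost without any 1 array (limma adjusted p = 0.0673 to 0.139) and in 14 of 16 alternatives in all. Of 4 tested ATP synthase factors 2 were higher: Fmc1 rose by 0.94 and Atpaf2, which binds the α subunit, by 0.42 (limma adjusted p = 0.0035 and 0.0296). Fmc1 kept its call without any 1 array, and Atpaf2 kept it only without Foxo3 siRNA replicate 1. Atpif1, the inhibitor of ATP synthase, had 9.66, 9.36 and 9.43 with Foxo3 siRNA, against 9.88, 9.75 and 9.81 with nontargeting siRNA, and its −0.33 did not pass (limma adjusted p = 0.0895).

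The 4 complex II genes had 0 calls by limma (1, Sdhc, was higher at an unadjusted p under 0.05) and a median of 0.14. Of 10 tested regulators of mitochondrial biogenesis, with a median of 0.0327, 1 was higher (10.0%, against 12.2% of all kept probes) and 0 lower (against 13.4%). It was Tfb1m, a methyltransferase of mitochondrial ribosomal RNA, which rose by 0.73 (limma adjusted p = 0.0084). Nrf1 (−0.0709), Gabpa (0.0349) and Tfam (0.0304), which drive nuclear and mitochondrial respiratory genes, did not pass on their brightest probes. Probes of Nrf1 and Gabpa disagreed in sign. The 3 kept probes ran from −0.0709 to 0.43 for Nrf1 and from 0.00771 to 0.0979 for Tfam, and the 2 of Gabpa from −0.10 to 0.0349. Ppargc1a and Ppargc1b were above background on no array.

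Respiratory genes linked to low oxygen had 4 of 8 higher and 0 lower, with a median of 0.44. Ndufa4l2, a paralog of a complex IV subunit that is induced by hypoxia, had 7.31, 6.70 and 6.71 with Foxo3 siRNA, against 4.53, 5.12 and 4.19 with nontargeting siRNA. It rose by 2.29 (SE 0.282, limma adjusted p = 0.0037), against 1.10 for Cox7a1. Ndufa4, the paralog that complex IV normally holds, was at −0.26 (limma adjusted p = 0.274). Pdk1 rose by 1.76, Higd1a, a small protein of the respiratory supercomplexes, by 1.28 and Lonp1, a protease of the matrix, by 0.64 (limma adjusted p = 0.0044, 0.0026 and 0.0115). The call of Lonp1 was lost without nontargeting replicate 2 (limma adjusted p = 0.0571). Hif1a itself gave 0.19 and did not pass. In all, 11 of the 56 tested genes of these lists were higher (19.6%, against 12.2% of all kept probes) and 1 lower (1.79%, against 13.4%). Without the 8 genes linked to low oxygen, 7 of 48 were higher (14.6%), near the share of the whole array.

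Promoter windows from RefSeq (GRCm38.p6, 250 bases before to 50 after the start) were found for 33 of the 43 subunit and cytochrome c genes. They were searched on both strands for 11 short motifs. The GATA letters AGATAA (or TTATCT) stood in 4 of the 33 (12.1%), against 11.4% of 27025 windows, namely those of Cox7a1, Cox7c, Atp5g1 and Atp5g3. The FOXO letters TGTTTAC (or GTAAACA) stood in 1 of 33, that of Cox7a2 (3.03%, against 3.55% of all). The palindrome of NRF1 stood in 7 (21.2%, against 4.78%) and ETS letters CCGGAAG in 9 (27.3%, against 9.12%). Of the 6 genes called higher that have a window, 4 held CCAAT or ATTGG (37.9% of all windows), 3 the GATA letters and 3 ACGTG or CACGT, the hypoxia response letters (19.7%). Cycs and Uqcrfs1 held the cAMP response letters TGACGTCA (1.88%). The E-box letters CACGTG, which contain ACGTG, stood in Atp5g1 and the CACCC letters CCACACCC in Cycs, and the FOXO, NRF1, ETS, YY1 (AAGATGGC) and SP1 (GGGGCGGGG) letters stood in 0 of the 6. The bases upstream of the start are shown for 3 called genes with GATA letters and for Cox7a2, chosen because the experiment activates GATA-1 and targets Foxo3, and not because these letters were more frequent than others. Capitals mark the GATA letters, or in Cox7a2 the FOXO letters.
Cox7a1 (chr7:30183921-30184170, plus strand): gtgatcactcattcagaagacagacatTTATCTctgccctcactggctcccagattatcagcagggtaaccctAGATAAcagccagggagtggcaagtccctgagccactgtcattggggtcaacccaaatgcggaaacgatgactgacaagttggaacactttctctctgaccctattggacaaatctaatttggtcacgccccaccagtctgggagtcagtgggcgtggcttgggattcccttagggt
Cox7c (chr13:86046796-86047045, minus strand): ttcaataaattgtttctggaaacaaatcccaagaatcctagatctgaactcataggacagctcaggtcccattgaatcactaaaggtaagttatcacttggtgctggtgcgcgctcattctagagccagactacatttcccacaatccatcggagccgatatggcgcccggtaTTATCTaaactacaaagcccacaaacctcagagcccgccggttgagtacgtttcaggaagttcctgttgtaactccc
Atp5g1 (chr11:96075632-96075881, minus strand): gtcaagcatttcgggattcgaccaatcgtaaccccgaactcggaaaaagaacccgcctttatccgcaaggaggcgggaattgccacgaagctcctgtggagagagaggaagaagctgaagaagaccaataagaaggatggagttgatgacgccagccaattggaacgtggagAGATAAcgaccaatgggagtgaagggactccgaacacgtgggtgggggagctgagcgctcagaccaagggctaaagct
Cox7a2 (chr9:79759854-79760103, minus strand): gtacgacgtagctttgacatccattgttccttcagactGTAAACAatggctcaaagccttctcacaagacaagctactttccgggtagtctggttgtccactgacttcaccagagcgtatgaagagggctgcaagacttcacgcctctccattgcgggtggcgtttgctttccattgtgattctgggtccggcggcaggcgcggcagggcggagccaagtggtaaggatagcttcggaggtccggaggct

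Counted from the start, the first GATA match lay at −223 in Cox7a1, −77 in Cox7c and −78 in Atp5g1, and the FOXO match of Cox7a2 lay at −212. A match of letters is not a binding site, and the difference of 0.31 of Cox7a2, the member with FOXO letters, did not pass. Windows with 0 matches say nothing about the factor.

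In the authors' deposited table, 1 member probe had an adjusted p under 0.05, that of Cox7a1 (log2 fold change 1.13, adjusted p = 0.0298). In the authors' deposited table Uqcrc2 was at 0.81 (adjusted p = 0.0590) and Cox6b2 at −0.94 (adjusted p = 0.0667), with the signs found here. Of the 3 genes that share only the name, Cox4nb was at 0.34, Atp5s at −0.11 and Atp5sl at −0.27, and none passed (limma adjusted p = 0.0925, 0.400 and 0.133).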

How the data were processed

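Total RNA from G1E-ER-GATA-1 cells was measured on 6 1-colour Agilent arrays, 3 with Foxo3 siRNA and 3 with nontargeting siRNA. Per the file headers, Agilent Feature Extraction 10.7.3.1 made the deposited spot intensity on a design placed on mm9. It subtracts background and puts a surrogate value where a signal is not above background. The deposited series table holds the same signals (largest difference 0) with the authors' log2 fold change and p-value per spot, which came from limma per the submitters' processing notes. Their normalization is not given in the sources used here.

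Control spots (3671 of 62976) were left out and outlier spots set to missing. The log2 intensity minus the 75th percentile of each array was averaged over the spots of a probe. A probe was kept when at least 0.5 of its spots passed the scanner's mark for well above background on each array of either group, which left 26991 of 55681. Groups were compared with limma 3.58.1 in R 4.3.3 (lmFit and eBayes, two-sided, no covariates, Benjamini-Hochberg over all kept probes), a step tested on simulated data. A gene was read by its brightest kept probe. The number of arrays limits the precision.

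The text names, for each complex, up to 5 called genes per direction, the 3 with the smallest absolute difference, all paralog sets, Cyc1, Cycs and Foxo3, and up to 4 genes of each pathway list. Further members named were chosen after their values were seen. The members and lists were chosen with earlier results of these data known. Of the marker lists, erythroid genes had 2 of 10 higher (Rhag and Tfrc), megakaryocyte genes 1 of 4 (Itga2b), and the 1 tested muscle gene, 5 testis, 3 macrophage genes and 1 fibroblast gene had 0 called by limma (1, 3, 2 and 1 were lower at an unadjusted p under 0.05). Alternatives were 3 other scalings, another background correction, 2 filters, 1 probe per name, replicate and slide row blocks, row 1 alone, each array left out, and the authors' table.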

Additional observations from a re-analysis of the deposited data

How the results depend on the processing

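Across 17 alternatives the log2 medians stayed above 0 in all 3 complexes, and complex IV stayed lowest. Single genes stayed on the same side of the threshold in 1241 of their comparisons, lost the call in 132 and gained it in 33. The 1241 include changes of sign in genes that were not called, and none that was called reversed. The number of arrays limits these results, which were not the same in every setting. Cox7a1 kept its call in 16 of 17 alternatives (largest adjusted p 0.0582, with no filter on dim probes), Uqcrc2 in 13, Cox6b2 and Atp5g1 in 11 each, Uqcrfs1 and Atp5c1 in 10 each, Cox7c in 9, Cycs in 6 and Cyc1 in 5.

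Called member probes numbered 11 higher and 1 lower. Higher calls by complex were 3 in complex III, 2 in complex IV and 2 in ATP synthase, with 1 lower in complex IV, and 11 other pathway genes were higher and 1 lower. Median scaling gave 0 member probes lower, 0 complex IV genes lower, 0 pathway genes lower, and medians of 0.63 (complex III), 0.41 (complex IV) and 0.56 (ATP synthase). Spike-in scaling gave 1 member probe higher and 0 lower (6 and 0 with an unadjusted p under 0.05), 0, 1 and 0 genes higher in complexes III and IV and ATP synthase, 0 complex IV genes lower, 3 pathway genes higher and 0 lower, and medians of 0.70, 0.48 and 0.64. Quantile normalization gave 0 pathway genes lower. Normexp with an offset gave 2 member probes lower, 4 ATP synthase genes higher, and 17 pathway genes higher and 2 lower. The filter on all 6 arrays gave 2 member probes lower, 4 ATP synthase genes higher, and 17 pathway genes higher and 3 lower. With no filter limma called 0 member probes higher and 0 lower (11 and 1 with an unadjusted p under 0.05), 0 genes in each complex, and 0 pathway genes higher and 0 lower, with 55681 probes tested in place of 26991. With 1 probe per gene name 3 pathway genes were lower. With slide row as a block 3 member probes were higher and 0 lower, 1 gene was higher in each complex and 0 lower in complex IV, the complex IV median was 0.22, and 5 pathway genes were higher and 0 lower. On row 1 alone 1 member probe was higher and 0 lower, 0, 1 and 0 genes were higher in complexes III and IV and ATP synthase, 0 were lower in complex IV, the complex IV median was 0.22, and 2 pathway genes were higher and 0 lower. The authors' deposited table had 1 member probe higher and 0 lower, 0, 1 and 0 genes higher by complex, 0 complex IV genes lower, and 4 pathway genes higher and 0 lower. The causes were not tested.

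Deviations from the group means of same-numbered arrays correlated at 0.164, −0.310 and 0.114, and those of differently numbered arrays at −0.370 to 0.293. With 3 arrays per group these values cannot decide whether the replicate numbers pair the samples. With the replicate block 2 member probes, 2 complex IV genes and 4 pathway genes were lower, and 6964 probes were called in all, against 6900.

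With 1 array left out, 3 to 9 member probes were higher and 1 to 2 lower, complex III had 1 to 3 genes higher, complex IV 1 to 2 and ATP synthase 0 to 2, and 7 to 10 pathway genes were higher and 0 to 3 lower. The log2 medians ranged over 0.26 to 0.34 (complex III), 0.0198 to 0.13 (complex IV) and 0.24 to 0.26 (ATP synthase).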

Other observations

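Outside the respiratory chain, erythroid genes of the same arrays gave mixed values. Rhag, of the Rhesus complex, had scaled log2 signals of 1.73, 1.51 and 1.64 with Foxo3 siRNA, against −0.20, 0.57 and 0.31 with nontargeting siRNA, and rose by 1.40 (limma adjusted p = 0.0063). Tfrc, the transferrin receptor, had 5.81, 5.82 and 5.87 with Foxo3 siRNA, against 5.19, 5.37 and 5.14 with nontargeting siRNA, and rose by 0.60 (limma adjusted p = 0.0124). Hbb-b1 (−0.55), Hba-a1 (−0.46) and Alas2 (−0.41) did not pass (limma adjusted p = 0.0719, 0.0670 and 0.0525). All 3 lay wholly below their nontargeting arrays and had an unadjusted p under 0.05 in limma. The authors' deposited table gave weaker values, −0.34 for Hbb-b1, 0 for Hba-a1 and −0.21 for Alas2. The size of these differences thus depends on the processing. Itga2b, a megakaryocyte integrin, rose by 1.26 (limma adjusted p = 0.0018), while Pf4 was at −0.16.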
